A study of Homo sapiens with 9 samples.

Results

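The kinesin genes of ES-2 cells, an established line derived from an ovarian carcinoma, were followed through depletion of the RNA-binding protein IGF2BP1 or of the transcription factor SRF. Members were all protein-coding genes of the deposited tables whose symbol is KIF with a number and at most a pair of letters, or KIFC1 to KIFC3. This gave 43 of 58174 genes, 19799 of them protein-coding, and left out 2 pseudogenes with a matching symbol. The 43 comprised 15 mitotic kinesins, 15 transport kinesins, 12 with other or less settled roles, and KIF1BP, a kinesin-binding protein without a motor domain that the symbol rule takes in. CENPE, a mitotic kinesin with another kind of symbol, was outside the rule and is given with the partners. Total RNA was sequenced after ribosomal RNA depletion, 72 h after transfection of ES-2 cells with control siRNA (siC), siRNAs against IGF2BP1 (siIGF2BP1) or siRNAs against SRF (siSRF), with 3 libraries per group. All groups were the same line and carried a transfected siRNA, so each value describes a partial loss in 1 line at 1 time. The labels do not say whether the 3 libraries came from separate cultures, so the p-values measure the spread between these libraries, which may be technical. In a bulk sample, fewer cells in mitosis and less RNA per cell cannot be told apart.

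Kinesins are motors that use ATP to move along microtubules or to take them apart. Mitotic kinesins build the spindle, align and move chromosomes and organise the midzone at which the cell divides, and their transcripts rise as cells approach mitosis. Transport kinesins carry vesicles, organelles and protein complexes through the cell between divisions, largely toward microtubule plus ends. In many mitotic genes a short element near the start, the cell cycle genes homology region (CHR), recruits a repressor complex in resting cells and its activating counterpart with MYBL2 and FOXM1 in dividing cells, often next to a CCAAT box bound by NF-Y. SRF binds a different element, the CArG box, and is best known for genes of the actin cytoskeleton. The study asked how far IGF2BP1 sustains SRF and the transcription that depends on it. The comparisons below describe kinesin transcripts in the same knockdowns, and whether any kinesin depends directly on SRF or IGF2BP1 was not tested.

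Depletion of both targets was visible in every library. IGF2BP1 was at 12.8 ± 0.69 FPKM (fragments per kilobase of gene and per library size; mean ± SD, n = 3) in siC, 4.11 ± 0.085 in siIGF2BP1 and 14.2 ± 0.45 in siSRF. SRF was at 14.5 ± 1.28 FPKM in siC, 6.01 ± 0.71 in siIGF2BP1 and 1.47 ± 0.15 in siSRF, so the siIGF2BP1 libraries held less SRF transcript as well. Library depth ran from 6421764 to 9416175 reads on genes. Of 9 listed markers of ovarian carcinoma and epithelium, which include the mesenchymal VIM, 3 reached a mean of 1 FPKM (VIM, KRT18 and KRT8). EPCAM, CDH1, KRT19, PAX8 and WT1 stayed under 1 FPKM and MUC16 was at 0 in all 9 libraries. None of 6 haematopoietic markers reached 1 FPKM. Of 4 endothelial markers only CDH5 did, and its summed list lay between 8.55 and 11.1 FPKM in siC, 14.6 and 16.5 in siIGF2BP1 and 7.87 and 8.65 in siSRF; its part in the results was not tested.

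The promoters of the members are shown first, because the mitotic and the transport kinesins differ there in letters that can be read directly. RefSeq promoter windows on GRCh38.p14, from 250 bases before to 50 bases after each annotated start, were matched for 35 of the 43 members. KIF13B, KIF19, KIF21B, KIF26B, KIF27, KIF5A, KIFC2 and KIFC3 had no window in the table used here. The CHR was searched as TTTGAA or TTCGAA, the CCAAT box as CCAAT and the CArG box by its usual consensus, all on both strands, and no CHR match overlapped a CCAAT match in a member. The CHR letters stood in 11 of the 15 mitotic kinesins, in 1 of 11 transport kinesins and in 1 of 8 others, against 19.5% of 27305 genes with a window (16.4% of 35116 windows). The CCAAT letters stood in 11 of 15 mitotic, 4 of 11 transport and 3 of 8 other kinesins, against 39.7% of genes (34.6% of windows). Both occurred together in 10 of 15 mitotic kinesins, 1 of 11 transport kinesins and 1 of 8 others, against 7.85% of genes. None of the 35 members with a window, which leave out KIF21B and KIFC3, held the CArG consensus. Only 1.6% of genes had it in these windows, so its absence from 35 members says little. These matches are descriptions of letters, not of bound sites, and say nothing of elements farther away.

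The 100 bases before the RefSeq start are printed below, 5′ to 3′ on the strand of the gene, with CHR and CCAAT letters of either strand in capitals. KIF4A, KIF22 and KIF2C are shown because they fell with siIGF2BP1, KIF20A and KIF2A because they changed with siSRF, KIF11, KIF23 and KIF18A as further mitotic genes with the CHR before the start, and KIF5B and KIF1C as the most abundant transport kinesins. In GENCODE v44, transcripts of KIF22, KIF11, KIF23, KIF20A, KIF2C and KIF2A begin upstream of the RefSeq start, so parts of these bases can belong to longer transcripts.
KIF4A: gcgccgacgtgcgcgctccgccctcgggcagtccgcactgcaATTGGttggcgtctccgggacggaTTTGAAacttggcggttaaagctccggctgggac
KIF22: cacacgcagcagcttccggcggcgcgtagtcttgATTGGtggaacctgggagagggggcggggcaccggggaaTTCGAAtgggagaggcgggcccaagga
KIF11: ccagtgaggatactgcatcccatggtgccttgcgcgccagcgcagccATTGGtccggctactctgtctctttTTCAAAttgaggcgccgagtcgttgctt
KIF23: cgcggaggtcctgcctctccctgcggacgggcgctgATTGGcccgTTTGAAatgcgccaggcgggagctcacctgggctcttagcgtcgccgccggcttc
KIF18A: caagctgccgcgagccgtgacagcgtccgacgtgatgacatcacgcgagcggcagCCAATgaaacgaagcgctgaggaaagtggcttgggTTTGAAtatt
KIF20A: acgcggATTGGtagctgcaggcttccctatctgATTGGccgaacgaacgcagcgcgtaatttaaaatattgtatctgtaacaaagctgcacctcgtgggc
KIF2C: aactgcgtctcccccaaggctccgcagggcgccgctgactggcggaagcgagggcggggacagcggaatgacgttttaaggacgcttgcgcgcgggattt
KIF2A: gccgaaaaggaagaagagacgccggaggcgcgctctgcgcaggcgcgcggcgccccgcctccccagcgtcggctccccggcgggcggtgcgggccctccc
KIF5B: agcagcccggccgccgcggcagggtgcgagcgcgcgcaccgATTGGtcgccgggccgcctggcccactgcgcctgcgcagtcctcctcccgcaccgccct
KIF1C: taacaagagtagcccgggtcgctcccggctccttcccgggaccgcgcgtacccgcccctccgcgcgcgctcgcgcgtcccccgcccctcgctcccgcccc

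These windows lie at chrX:70290004-70290103, chr16:29790651-29790750, chr10:92593030-92593129, chr15:69414249-69414348, chr5:138179012-138179111, chr1:44739737-44739836, chr5:62306106-62306205 and chr17:4997850-4997949 on the plus strand, and at chr11:28108157-28108256 and chr10:32056426-32056525 on the minus strand. In KIF4A the CHR began 34 bases before the start with a CCAAT box beginning at 58, in KIF22 and KIF11 the CHR began at 27 and 28 bases, in KIF23 at 55 and in KIF18A at 10. KIF20A held 2 CCAAT boxes and neither of the CHR letter forms searched, and other forms of the element were not looked for. KIF2C and KIF2A, both of which depolymerise microtubules, held neither set of letters anywhere in the window, and neither did KIF1C. In KIF20B, KIF18B, KIF14, KIFC1 and KIF4B the CHR letters began after the start, within the first 31 bases of the transcript. The single CHR match among transport kinesins, in KIF5B, began 140 bases before the start.

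**Figure D1:**
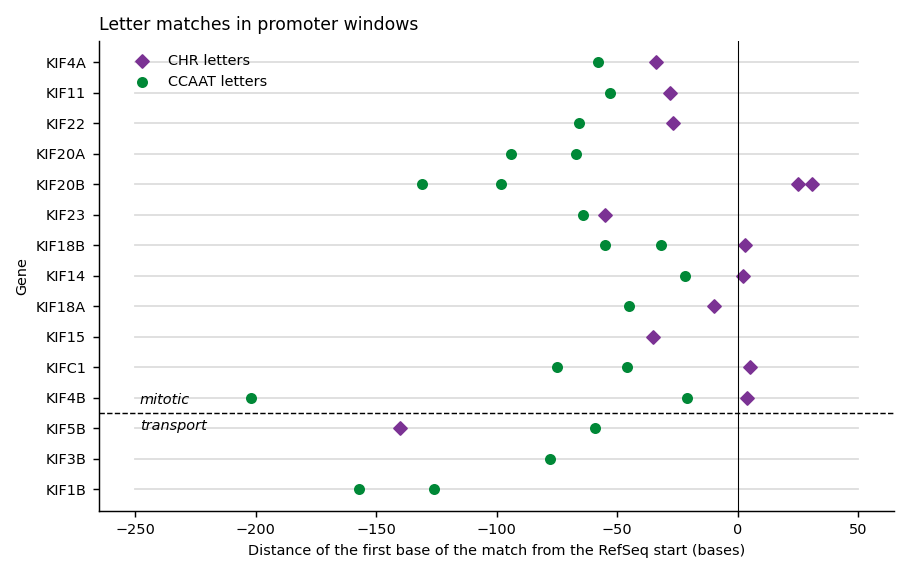
Positions of CHR letters (diamonds) and CCAAT letters (circles) in the first promoter window of each mitotic or transport kinesin that held any, as the distance in bases of the first base of the match from the RefSeq start. The mitotic genes above the dashed line mostly carry a CHR near the start with CCAAT letters farther upstream, and the 3 transport genes below it hold 1 CHR, 140 bases before the start.

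In ES-2 cells most mitotic kinesins were abundant and most transport kinesins were not. Over the 9 libraries 30 of the 43 members had a mean of at least 1 FPKM, 5 lay between 0.1 and 1 FPKM and 8 below 0.1 FPKM. KIF2B, KIF12, KIF19 and KIF26A were at 0 in every library. The neuronal transport motors KIF1A and KIF5A had 2 and 4 reads in all 9 libraries together. Among the 30, a library held between 33 reads (KIF27) and 4180 reads (KIF1C) per gene. In siC, 12 of 15 mitotic kinesins and 3 of 15 transport kinesins reached 10 FPKM, and the median was 14.1 FPKM in the mitotic and 4.47 FPKM in the transport class. FPKM is per length and so allows genes to be ranked. KIF5B, the heavy chain of conventional kinesin, led with 52.2 ± 3.4 FPKM in siC, followed by the chromokinesin KIF4A at 47.9 ± 0.63, the depolymerase KIF2C at 47.2 ± 1.3, the spindle motor KIF11 at 44.1 ± 3.4 and the vesicle motor KIF1C at 44.02 ± 2.4 (SD, n = 3). Neighbours in this order differed by less than the larger SD of the pair, except that KIF5B lay farther than that above KIF4A.

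**Figure D2:**
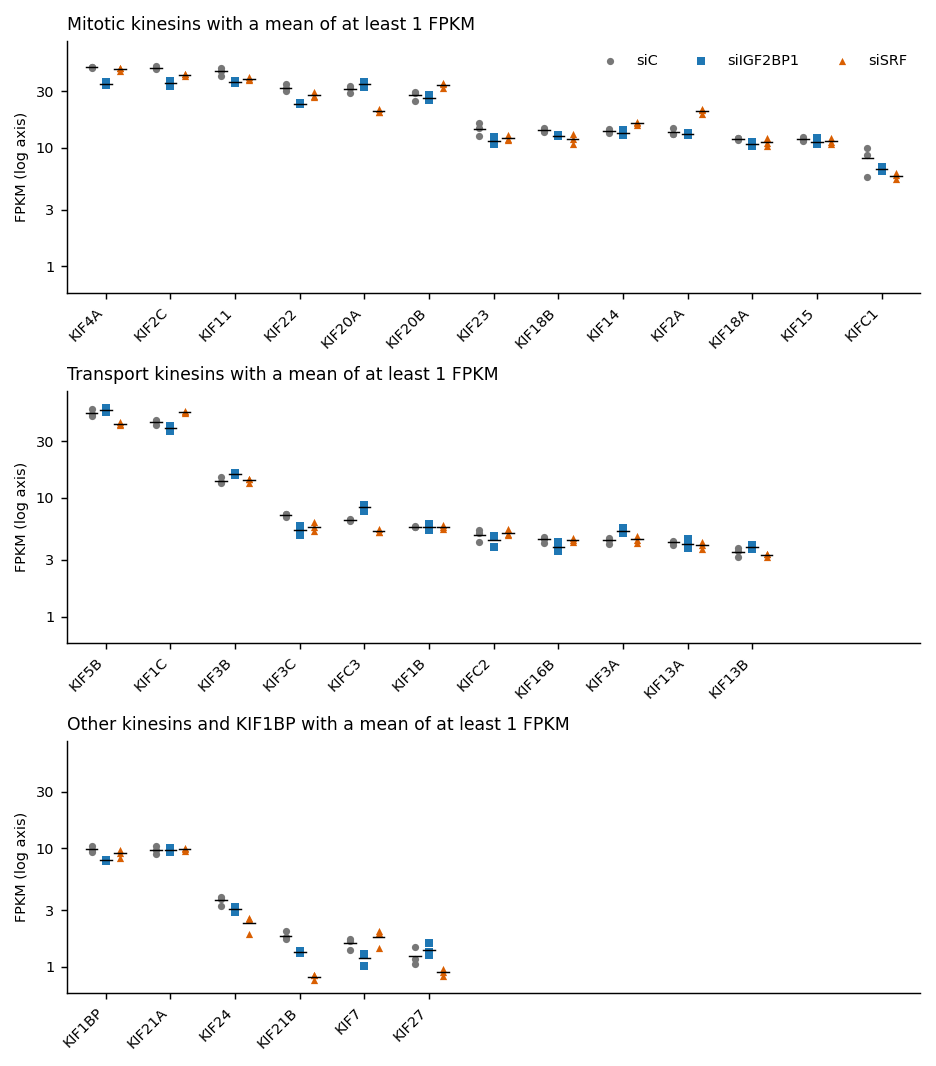
FPKM on a log axis of the 30 members with a mean of at least 1 FPKM, in the 3 libraries of siC (circles), siIGF2BP1 (squares) and siSRF (triangles), with black bars at the group means. KIF4A, KIF2C and KIF22 are lower in siIGF2BP1, KIF20A is lower and KIF2A higher in siSRF, and most transport kinesins below KIF1C lie under 10 FPKM in all groups.

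Summed over the 15 members, mitotic kinesin transcript was at 315, 320 and 323 FPKM in siC, at 269, 269 and 272 FPKM in siIGF2BP1 and at 296.5, 298 and 298.5 FPKM in siSRF. The 3 groups did not overlap, with siIGF2BP1 the lowest, 15.5% below siC, and siSRF 6.78% below siC. Transport kinesin transcript summed to 145, 153 and 157 FPKM in siC, 153, 151 and 153 FPKM in siIGF2BP1 and 148.5, 148 and 149 FPKM in siSRF, and these ranges overlapped. Of the 49.4 FPKM by which the mitotic sum of siIGF2BP1 lay below that of siC, 42.2 FPKM came from KIF4A, KIF2C, KIF22 and KIF11. With siSRF the mitotic sum combined differences in both directions, since KIF20A lay 10.9 FPKM below siC whereas KIF2A and KIF20B lay above it, siC minus siSRF being -6.95 and -5.87 FPKM. No test was run on these sums, because a few abundant genes decide them.

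**Figure D3:**
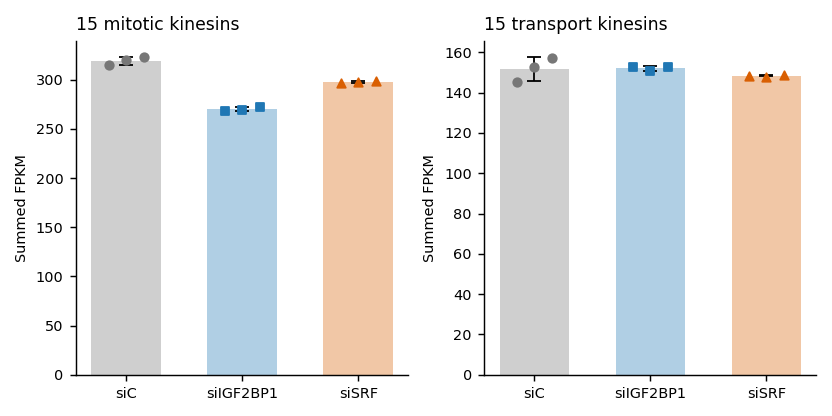
Summed FPKM of the 15 mitotic and the 15 transport kinesins per library (points), with bars at the group mean and whiskers of 1 SD over 3 libraries; both axes start at 0. The mitotic sums separate into siC at 315 to 323, siSRF at 296.5 to 298.5 and siIGF2BP1 at 269 to 272, and the transport sums overlap.

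With siIGF2BP1, 3 mitotic kinesins fell and no kinesin rose: of 34 members tested, KIF4A, KIF2C and KIF22 were lower than in siC (limma-trend on log2(FPKM + 0.1), with a Benjamini-Hochberg adjusted p over all 22292 genes tested that had to reach 0.01). These were 3 of 14 mitotic kinesins tested and 0 of 12 transport kinesins. As background, 5.91% of protein-coding genes were called lower and 5.52% higher, against 8.82% and 0% of the tested kinesins. At an unadjusted p under 0.05, a level for which no share over all genes was taken, limma gave 11 members lower and 3 higher. The limma-voom fit on the recovered reads, which makes more calls throughout (14.3% of protein-coding genes lower and 13.7% higher), called 8 kinesins lower, adding the mitotic KIF11 and KIF23, the transport motor KIF3C, KIF21B and KIF1BP, and 1 higher, the minus-end motor KIFC3.

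KIF4A, a chromokinesin that shortens the overlap of midzone microtubules with PRC1, was at 47.2, 48.3 and 48.2 FPKM in siC and at 33.7, 34.3 and 35.8 FPKM in siIGF2BP1. All 3 siIGF2BP1 libraries lay well below every siC library, with a log2 fold change of -0.47 ± 0.041 (SE, limma adjusted p = 0.0012). In siSRF it was at 46.7, 47.0 and 44.8 FPKM, close to siC (-0.05 ± 0.037, limma adjusted p = 0.38). It is encoded at chrX:70290104-70420886. The call held without any single library. KIF4B, an intronless copy that may share reads with KIF4A, stood at 0.0119 to 0.0235 of KIF4A in each library.

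KIF2C, which removes tubulin from microtubule ends at centromeres, was at 45.9, 48.5 and 47.3 FPKM in siC, 35.9, 33.2 and 36.6 FPKM in siIGF2BP1 and 40.4, 41.9 and 41.8 FPKM in siSRF. The 3 groups did not overlap, siIGF2BP1 being the lowest and siSRF in between. The fold change was -0.42 ± 0.052 with siIGF2BP1 (limma adjusted p = 0.0037) and -0.19 ± 0.039 with siSRF (limma adjusted p = 0.016). KIF22, a chromokinesin that pushes chromosome arms toward the spindle equator, was at 30.1, 34.3 and 32.2 FPKM in siC, 23.8, 23.4 and 23.6 FPKM in siIGF2BP1 and 26.8, 27.1 and 29.8 FPKM in siSRF. It had the same order of groups, without overlap, at -0.45 ± 0.056 (limma adjusted p = 0.0042) and -0.21 ± 0.067 (limma adjusted p = 0.074). Without any 1 of the 6 libraries the siIGF2BP1 call of KIF2C was lost (adjusted p 0.012 to 0.017, fold change -0.45 to -0.38), and that of KIF22 held only without siC replicate 1, the adjusted p being 0.0073 to 0.024. The genes are at chr1:44739818-44767767 and chr16:29790727-29805385.

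The other mitotic kinesins did not pass the threshold with siIGF2BP1, and most lay below siC. Of the 14 mitotic members tested, 13 had a fold change below 0, KIF20A being the exception, and the median was -0.20 against -0.01 over 12512 protein-coding genes, of which 50.7% lay below 0. The median is a description and was not tested. KIF11, the tetrameric motor that pushes spindle poles apart and the target of several antimitotic compounds, was at 44.2, 40.7 and 47.4 FPKM in siC and 35.02, 36.4 and 36.05 FPKM in siIGF2BP1, with no overlap (-0.30 ± 0.063, limma adjusted p = 0.025). It is at chr10:92574105-92655395. KIF23, the motor subunit of centralspindlin, had -0.33 ± 0.11 (limma adjusted p = 0.094), with KIF18A and KIF18B, which damp chromosome oscillations and microtubule growth, at -0.16 and -0.15. KIFC1, which gathers extra centrosomes, could not be placed, because siC alone spread from 5.71 to 10.0 FPKM. KIF14, KIF15, KIF2A and KIF20B lay between -0.08 and -0.04.

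Among transport kinesins siIGF2BP1 gave fold changes on both sides of 0, with 6 of 12 below it and a median of 0.04. KIF5B was at 49.5, 51.2 and 56.0 FPKM in siC and 53.5, 57.1 and 55.9 FPKM in siIGF2BP1, overlapping (0.09 ± 0.058, 95% interval -0.05 to 0.23). KIF1C was at 41.3, 45.8 and 44.9 FPKM in siC and 40.0, 36.4 and 40.5 FPKM in siIGF2BP1, just apart (-0.18 ± 0.063, limma adjusted p = 0.12). Kinesin-2, which runs the cilium and also carries vesicles, pairs KIF3A with KIF3B or KIF3C. KIF3A and KIF3B had 0.26 ± 0.088 and 0.19 ± 0.057, whereas KIF3C had -0.42 ± 0.083, and none of the 3 was called (limma adjusted p = 0.10, 0.082 and 0.019). The ratio of KIF3C to KIF3B was 0.538, 0.547 and 0.467 in siC and 0.357, 0.314 and 0.339 in siIGF2BP1; this pair was chosen after the values were seen. Counted by library, 13 of 34 tested members had all siIGF2BP1 libraries below all siC libraries and 4 had them above, against 25.7% and 24.8% of protein-coding genes. The 13 included 7 of 14 mitotic kinesins, and the 4 were the transport kinesins KIF3A, KIF3B, KIF5C and KIFC3. In an exact permutation test on the mean FPKM such a gene has p = 0.1, the smallest that 3 against 3 libraries allow.

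**Figure D4:**
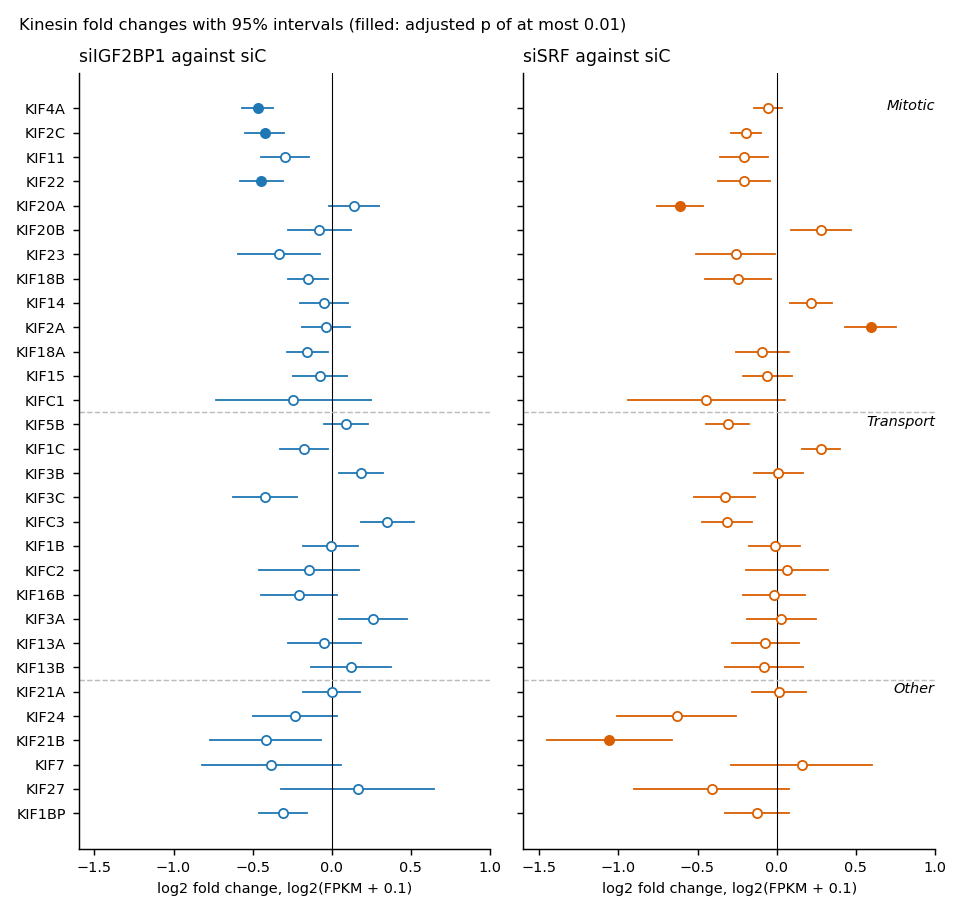
log2 fold change of log2(FPKM + 0.1) for the 30 members with a mean of at least 1 FPKM, with 95% intervals from limma-trend over 3 against 3 libraries; filled points passed the adjusted p of 0.01. With siIGF2BP1 all mitotic kinesins shown but KIF20A lie below 0, whereas with siSRF KIF20A at -0.61 and KIF2A at 0.59 mark the extremes of the mitotic class; the lowest point, at -1.06, is KIF21B.

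With siSRF, KIF20A and KIF21B fell and KIF2A rose, which made 2 of 35 tested members lower and 1 higher than in siC (limma-trend, same threshold, 21857 genes tested). As background, 8.67% of protein-coding genes were called lower and 11.1% higher, against 5.71% and 2.86% of the tested kinesins. The limma-voom fit, with 17.5% and 20.9% of protein-coding genes called, put 7 kinesins lower (KIF11, KIF20A, KIF21B, KIF24, KIF3C, KIF5B and KIFC3) and 4 higher (KIF17, KIF1C, KIF20B and KIF2A). Counted by library, 12 members lay wholly below siC and 6 wholly above it, against 26.5% and 30.8% of protein-coding genes. The 12 included 6 of 14 mitotic kinesins, and the 6 above siC included 3 of them. At an unadjusted p under 0.05, again without a share over all genes, limma gave 11 members lower and 4 higher, close to the counts with siIGF2BP1.

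KIF20A, which carries the chromosomal passenger complex to the midzone for cytokinesis, was at 31.8, 33.0 and 29.0 FPKM in siC, 35.8, 32.5 and 34.9 FPKM in siIGF2BP1 and 21.2, 19.96 and 20.05 FPKM in siSRF. Only the siSRF libraries stood apart, at 65.2% of the siC mean, with a fold change of -0.61 ± 0.060 (limma adjusted p = 0.0013). The call held without any single library. It is encoded at chr5:138178719-138187723. KIF20B, its relative with a role in late cytokinesis, lay on the other side of siC, at 29.1, 24.9 and 29.6 FPKM in siC, 25.1, 27.9 and 26.003 FPKM in siIGF2BP1 and 34.2, 32.1 and 34.9 FPKM in siSRF. The siC and siSRF libraries did not overlap, but the difference missed the threshold (0.28 ± 0.078, limma adjusted p = 0.047), and with trends along GC content and gene length removed it was 0.01. The ratio of KIF20A to KIF20B was 1.09, 1.33 and 0.979 in siC, 1.42, 1.16 and 1.34 in siIGF2BP1 and 0.62, 0.621 and 0.575 in siSRF.

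KIF2A, a depolymerase at spindle poles that also trims microtubules in cells between divisions and in neurons, was at 13.1, 14.6 and 13.0 FPKM in siC, 12.9, 13.4 and 13.2 FPKM in siIGF2BP1 and 21.0, 21.2 and 19.4 FPKM in siSRF. Every siSRF library lay above every other library, at 151% of the siC mean (0.59 ± 0.067, limma adjusted p = 0.0019). The call was lost without siSRF replicate 1 (0.58, adjusted p = 0.013) or replicate 2 (0.57, adjusted p = 0.013), and after removal of GC and length trends (0.36, adjusted p = 0.028). Its transcripts are at 39.2% GC, and the part of GC content in the rise was not tested. The gene is at chr5:62306162-62391025. KIF2C, its relative, lay on the other side of 0, so that the ratio of KIF2A to KIF2C went from 0.284, 0.301 and 0.275 in siC to 0.36, 0.405 and 0.361 in siIGF2BP1 and 0.519, 0.506 and 0.464 in siSRF. These ratios within libraries were chosen after the values were seen.

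KIF21B, a motor that pauses microtubule growth and is known from neurons and lymphocytes, was at 1.71, 1.99 and 1.78 FPKM in siC, 1.30, 1.35 and 1.36 FPKM in siIGF2BP1 and 0.842, 0.777 and 0.848 FPKM in siSRF. The 3 groups followed each other without overlap, siSRF reaching 45.1% of the siC mean (-1.06 ± 0.16, limma adjusted p = 0.0057) and siIGF2BP1 73.4% (-0.42 ± 0.145, limma adjusted p = 0.11). The siSRF call was lost without any 1 of the 6 libraries (adjusted p 0.019 to 0.025, fold change -1.10 to -0.998) and after removal of GC and length trends (-0.84, adjusted p = 0.012). The gene, at chr1:200969390-201023714, was covered by 1073 reads over all libraries. KIF21A, its paralog, was at 9.70 ± 0.73 FPKM in siC and had 0.00 ± 0.075 and 0.01 ± 0.070 for siIGF2BP1 and siSRF (95% intervals -0.18 to 0.18 and -0.16 to 0.18).

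With siSRF the most abundant transport kinesins lay on opposite sides of siC, just short of the threshold. KIF5B was at 43.3, 41.1 and 41.9 FPKM in siSRF, below every siC library (-0.31 ± 0.056, limma adjusted p = 0.0103), and KIF1C at 52.4, 53.4 and 54.3 FPKM, above every siC library (0.28 ± 0.050, limma adjusted p = 0.0101). Both were called by limma-voom, and with GC and length trends removed they were at -0.52 and 0.47 and called. The order of the pair turned with it: KIF5B to KIF1C was 1.20, 1.12 and 1.25 in siC, 1.34, 1.57 and 1.38 in siIGF2BP1 and 0.827, 0.769 and 0.772 in siSRF. This ratio too was chosen after the values were seen, and it restates the separate differences of the pair. KIF5B lies at chr10:32009015-32056425 and KIF1C at chr17:4997950-5028401. Over the 13 transport kinesins tested the median fold change was -0.01 with 7 below 0, and over the 14 mitotic ones it was -0.14 with 10 below 0, against 0.02 over 12381 protein-coding genes, of which 48.2% lay below 0. KIF11, at 39.2, 37.2 and 38.0 FPKM in siSRF, had -0.21 ± 0.063 (limma adjusted p = 0.062), which became -0.44 with an adjusted p of 0.00097 once GC and length trends were removed. KIF14, a midzone kinesin that binds PRC1 and citron kinase, had 0.22 ± 0.054 (limma adjusted p = 0.031), which became -0.03.

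The knockdowns were then set against each other directly, since an effect called in one and not in the other is not thereby different. Both share the siC libraries, and the siSRF and siIGF2BP1 libraries themselves were compared. Of 35 members tested, 3 were lower in siSRF than in siIGF2BP1 (KIF20A, KIF5B and KIFC3) and 4 higher (KIF1C, KIF20B, KIF2A and KIF4A) by limma-trend at the same threshold. As background, 13.7% of protein-coding genes were lower and 18.3% higher, against 8.57% and 11.4% of the tested kinesins. By limma-voom, with 22.6% and 26.6% of protein-coding genes called, 4 kinesins were lower, adding KIF21B, and 7 higher, adding the mitotic KIF14, KIF22 and KIF2C. The mitotic median was 0.16 with 11 of 14 above 0, and the transport median -0.01, against 0.02 over 12507 protein-coding genes.

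KIF20A showed the widest gap among the called members, at -0.75 ± 0.051 (limma adjusted p = 0.00015), followed by KIFC3 at -0.67 ± 0.071 (limma adjusted p = 0.00085). KIFC3, a minus-end motor of epithelial junctions and vesicles at chr16:57758217-57863053, was at 6.45, 6.62 and 6.55 FPKM in siC, 8.76, 7.78 and 8.58 FPKM in siIGF2BP1 and 5.12, 5.49 and 5.11 FPKM in siSRF. The siC libraries lay between the knockdowns, and neither knockdown alone was called against siC (0.35 ± 0.069 and -0.32 ± 0.065, limma adjusted p = 0.019 and 0.017). KIF2A differed by 0.63 ± 0.050, KIF1C by 0.45 ± 0.050, KIF4A by 0.41 ± 0.040, KIF5B by -0.40 ± 0.040 and KIF20B by 0.36 ± 0.055, the last at a limma adjusted p of 0.0037. The KIF20B call held only without siIGF2BP1 replicate 2 or siSRF replicate 2 and was lost without siIGF2BP1 replicate 1 (0.32) or 3 (0.35) and without siSRF replicate 1 (0.35) or 3 (0.33), at adjusted p of 0.013 to 0.018.

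**Figure D5:**
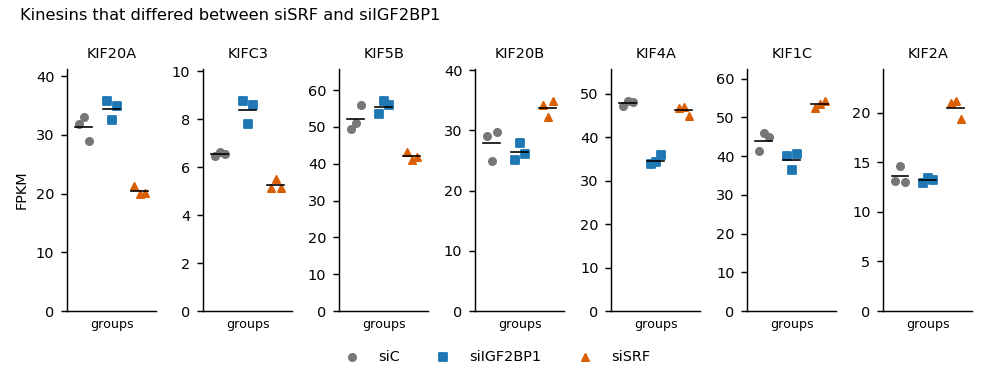
FPKM per library (points) and group mean (black bar) of the 7 kinesins that differed between siSRF and siIGF2BP1 (adjusted p up to 0.01), ordered by that difference from -0.75 to 0.63; each panel has its own axis from 0. KIF4A stands apart in siIGF2BP1, KIF20A and KIF2A in siSRF, and for KIFC3 siC lies between the knockdowns.

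The remaining members were mostly of low abundance. KIF24, a centriolar kinesin that holds back cilia, was at 3.90, 3.24 and 3.74 FPKM in siC and 2.56, 2.52 and 1.88 FPKM in siSRF (-0.63 ± 0.16, limma adjusted p = 0.031). KIF17, a dendritic and ciliary motor, had 31 reads in all 9 libraries and is mentioned only because limma-voom called it higher with siSRF. KIF1BP, which blocks motor domains of several kinesins, was at 9.66, 9.34 and 10.4 FPKM in siC and 7.92, 7.79 and 7.97 FPKM in siIGF2BP1, apart but not called (-0.31 ± 0.063, limma adjusted p = 0.022). The vesicle motors KIF1B, KIF13A, KIF13B and KIF16B and the minus-end KIFC2 averaged between 3.30 and 5.73 FPKM in every group and between -0.21 and 0.12 in both knockdowns, none of them called. The hedgehog pathway kinesin KIF7 and its relative KIF27 were between 0.89 and 1.78 FPKM on average and not called.

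Many genes that work with the mitotic kinesins were lower in 1 or both knockdowns. Of 21 listed partners, 8 fell with siIGF2BP1 (AURKB, BIRC5, CCNB1, CDC20, INCENP, PLK1, PRC1 and RACGAP1) and none rose, with a median of -0.32, against the 5.91% and 5.52% of protein-coding genes given above. Of the 21, 20 lay below 0. At an unadjusted p under 0.05, without a share over all genes, limma gave 15 lower and 0 higher. By limma-voom 12 were lower and 0 higher, against 14.3% and 13.7% of protein-coding genes. With siSRF 7 fell (AURKB, BIRC5, CCNB1, CCNB2, CENPF, INCENP and PLK1) and ECT2 rose, with a median of -0.25, against 8.67% of protein-coding genes lower and 11.1% higher. Here 16 of the 21 lay below 0, and limma gave 13 lower and 1 higher at an unadjusted p under 0.05. By limma-voom 11 were lower and 1 higher, against 17.5% and 20.9%. Of the 7 that fell with siSRF, AURKB and PLK1 lost the call with GC and length trends removed (adjusted p = 0.019 and 0.044). Between knockdowns 4 partners were higher in siSRF than in siIGF2BP1 (AURKA, CDC20, ECT2 and PLK1) and 0 lower, with a median of 0.14. Among protein-coding genes 18.3% were higher and 13.7% lower. By limma-voom 6 partners were higher and 2 lower, against 26.6% and 22.6%. BIRC5, the survivin subunit of the passenger complex that KIF20A carries, went from 40.6, 38.88 and 39.6 FPKM in siC to 29.0, 25.7 and 30.6 in siIGF2BP1 and 28.2, 27.5 and 27.5 in siSRF (-0.48 and -0.52, limma adjusted p = 0.0065 and 0.00052). PRC1, to which KIF4A binds, and RACGAP1, the partner of KIF23, were named for these ties after their values were seen, and had -0.30 and -0.32 with siIGF2BP1 (limma adjusted p = 0.0088 and 0.0060) and -0.16 and -0.20 with siSRF (limma adjusted p = 0.12 and 0.018). CENPE, the kinetochore kinesin outside the symbol rule, had 0.08 ± 0.11 and 0.20 ± 0.10 and was not called in either (limma adjusted p = 0.68 and 0.22), and with GC and length trends removed it was at -0.16 and -0.06.

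Of 11 genes of the mitotic transcription machinery, E2F4 fell and RBL2 rose with siIGF2BP1, against 5.91% of protein-coding genes lower and 5.52% higher. MYBL2 and TFDP1 fell with siSRF and none rose, against 8.67% lower and 11.1% higher. By limma-voom 2 were lower and 1 higher with siIGF2BP1, against 14.3% and 13.7% of protein-coding genes. With siSRF limma-voom put 5 lower and 1 higher, LIN9 (0.76 by limma-trend), against 17.5% and 20.9%. Between knockdowns 5 of the 11 were lower in siSRF than in siIGF2BP1 and 2 higher by limma-trend, against 13.7% and 18.3%. With GC and length trends removed RBL2 lost its siIGF2BP1 call (0.36, adjusted p = 0.012). Between knockdowns RBBP4 and LIN9 lost theirs (adjusted p = 0.0104 and 0.014). MYBL2 went from 35.01, 37.9 and 34.8 FPKM in siC to 17.6, 19.5 and 19.5 FPKM in siSRF (-0.92 ± 0.062, limma adjusted p = 0.00046). FOXM1 was at 18.3 ± 2.4 FPKM in siC, 12.2 ± 1.8 in siIGF2BP1 and 12.4 ± 1.4 in siSRF, and missed the threshold in both (-0.58 and -0.55, limma adjusted p = 0.036 and 0.021). Of the 5 genes of the proliferation list, MKI67 and PCNA fell with siSRF and all 5 lay below 0 (median -0.33). With siIGF2BP1 limma-trend called none of the 5 (median -0.06, 2 lower and 1 higher, CCNE2, at an unadjusted p under 0.05). By limma-voom MKI67 was lower and CCNE2 higher with siIGF2BP1. MKI67 was at 29.8, 34.6 and 21.3 FPKM in siC, 21.5, 17.3 and 17.3 in siIGF2BP1 and 11.7, 12.5 and 12.3 in siSRF. Its fold change was -0.59 ± 0.19 with siIGF2BP1 (limma adjusted p = 0.090, limma-voom adjusted p = 1.4e-05) and -1.19 ± 0.17 with siSRF (limma adjusted p = 0.0044). Between knockdowns the 5 genes lay lower in siSRF (median -0.44), whereas the mitotic kinesins had a median of 0.16. The part of these markers in the kinesin results was not tested.

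The shares of transport partners called were near those of all protein-coding genes or below them. Of 14 listed, 13 were tested, of which none was called with siIGF2BP1, against 5.91% of protein-coding genes lower and 5.52% higher. Their median was 0.01, with limma giving 2 lower and 2 higher at an unadjusted p under 0.05. By limma-voom 1 was called each way, against 14.3% and 13.7%. With siSRF the kinesin light chain KLC2 fell (-0.38 ± 0.058) and the cargo adaptor SPAG9 rose (0.36 ± 0.058), 1 of 13 each way against 8.67% and 11.1%. By limma-voom 2 were lower and 3 higher with siSRF, against 17.5% and 20.9%. With GC and length trends removed KLC2 was at -0.14 and SPAG9 at 0.23, and neither was called (adjusted p = 0.25 and 0.023). Dynein and dynactin form the minus-end motor opposing most kinesins. Of their 17 genes listed, 1 fell and 1 rose with siIGF2BP1, against 5.91% and 5.52% of protein-coding genes. The heavy chain DYNC1H1 fell from 78.4, 87.7 and 83.7 FPKM in siC to 52.6, 49.3 and 51.9 FPKM (-0.70 ± 0.055, limma adjusted p = 0.00088). DYNLT3 rose, a call lost with GC and length trends removed (0.85, adjusted p = 0.011). With siSRF 1 of the 17 fell and 2 rose, against 8.67% and 11.1% of protein-coding genes. The light intermediate chains DYNC1LI1 and DYNC1LI2 rose (0.54 and 0.56) and DYNLL2 fell (-0.43), whereas DYNC1H1 was at 88.95, 90.4 and 89.8 FPKM (0.11 ± 0.049, limma adjusted p = 0.17).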

How the data were processed

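The authors clipped reads with Cutadapt 1.14, aligned them to GRCh38 (hg38) with HISAT2 2.1.0, counted them on Ensembl genes with featureCounts 1.5.3 and deposited FPKM values per library, scaled by TMM factors, with gene length in bases. Their log2 fold change, p-value and FDR columns, from edgeR 3.18.1, were not used. The siC columns of both tables were identical. Whole reads, needed for limma-voom, were recovered for 100% of values (tolerance 0.01 read).

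limma 3.58.1 in R 4.3.3 (lmFit, eBayes with a trend) was run on log2(FPKM + 0.1) keeping genes that averaged 0.1 FPKM or more in the 6 libraries compared, adjusted by Benjamini-Hochberg over all genes, and was tested on simulated data. A fold change on this scale understates changes of low genes. limma-voom on the recovered reads, other pseudocounts and filters, rescaling, a replicate block, 1 fit over 9 libraries, removal of GC and length trends and leaving out each library were alternatives. The kit is directional, but whether counting used the strand is not given in the sources used here.

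Described are kinesins with a mean of at least 1 FPKM, with every library's value for called kinesins (the 10 with the smallest adjusted p) and for the 5 most abundant in siC, and up to 3 genes per partner list plus CENPE, FOXM1 and MKI67. Further names are given where a count of calls was small. Members and lists were chosen with earlier results of these data known. Gene coordinates are from GENCODE v44, which held all 43 identifiers, and promoters from RefSeq.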

Additional observations from a re-analysis of the deposited data

Results flagged for a closer look

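The effects of the knockdowns on 7 kinesins differed by a test of the difference itself, siSRF against siIGF2BP1 (limma, adjusted p of at most 0.01), with siC shared by both. The log2 difference, siSRF minus siIGF2BP1, was -0.75 for KIF20A, -0.67 for KIFC3 and -0.40 for KIF5B. It was 0.63 for KIF2A, 0.45 for KIF1C, 0.41 for KIF4A and 0.36 for KIF20B. Of these, KIF4A was called against siC with siIGF2BP1, KIF20A and KIF2A with siSRF, and the other 4 in neither. The signs against siC were opposite for KIF20A, KIF20B, KIF2A, KIF5B, KIF1C and KIFC3, and both below 0 for KIF4A. Among those with opposite signs, siIGF2BP1 stood apart from siC only for KIF1C and KIFC3. For KIF20A, KIF20B, KIF2A and KIF5B the siIGF2BP1 libraries overlapped siC, so their sign with siIGF2BP1 is not settled.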

How the results depend on the processing

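No fold change of a called kinesin reversed. Among those not called, several near 0 changed sign, and with GC and length trends removed KIF14 with siSRF (-0.03) and CENPE with siIGF2BP1 (-0.16) and siSRF (-0.06) did so. With fewer calls, the replicate block, tried because the labels number the libraries 1 to 3, left 0 lower and 0 higher with either knockdown against siC, and 1 lower and 2 higher between knockdowns. Libraries of equal number did not deviate together (correlations -0.04 to 0.02), so the block rests on a number only. With all genes that have a value, 1 kinesin was lower with siSRF.

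Counts of lower and higher kinesins rose with siIGF2BP1 to 8 and 1 by limma-voom, to 5 and 1 in 1 fit of all 9 libraries, to 5 and 1 with GC and length trends removed, and to 6 and 1 with 0.05 as the threshold. With siSRF they rose to 7 and 4 by limma-voom, to 4 and 2 with a mean of at least 1 FPKM, with all 9 libraries or with adjustment over protein-coding genes, and to 7 and 4 with 0.05 as the threshold. Those higher with siSRF were also 2 with a pseudocount of 1 or median-ratio rescaling. Between knockdowns 7 were higher by limma-voom, with a mean of at least 1 FPKM, with adjustment over protein-coding genes or with 0.05 as the threshold, and the last gave 5 lower. Leaving out 1 library gave 1 to 2 lower and 0 higher with siIGF2BP1, 1 lower and 0 to 1 higher with siSRF, and 3 lower and 3 to 4 higher between knockdowns.

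The mitotic median with siIGF2BP1 became -0.28 with GC and length trends removed and -0.23 to -0.13 without 1 library, the smallest without siC replicate 3. With siSRF it became -0.19 with a mean of at least 1 FPKM or with KIF2A counted as a transport kinesin, and -0.17 to -0.12 without 1 library. Between knockdowns it became 0.0905 with a mean of at least 1 FPKM or with KIF2A counted as transport, 0.094 with GC and length trends removed, and 0.14 to 0.18 without 1 library. Transport medians without 1 library were 0.02 to 0.06, -0.04 to -0.01 and -0.04 to 0.03. Over members of at least 10 FPKM in siC, a choice made after seeing the data, the transport median between knockdowns was -0.17. The causes were not tested. Members under 0.1 FPKM, with at most 4 reads in a library, could not show a change at this depth.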
